A study of Homo sapiens with 3 samples.

Results

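The dual-resistant population of HCC827 was set against vehicle-treated cells of the same pool, a parallel arm that stands here for the starting state. HCC827 is an established human lung adenocarcinoma line that depends on a mutant EGF receptor. These were 2 of the 3 RNA-seq libraries of the study, with 1 library for each population. All 3 populations came from 1 polyclonal pool that carried the ClonTracer library of DNA barcodes, so the vehicle cells were barcoded as well. Vehicle cells were kept in 0.1% DMSO for 4 days. The erlotinib-resistant population had 47 days of erlotinib at 2 µM. Erlotinib blocks the kinase of that receptor. The dual-resistant population was that resistant population after 10 more days in erlotinib at 2 µM together with crizotinib, an inhibitor of the MET kinase, at 0.2 µM. The values of rows with the same symbol were added, and genes with 5 FPKM or more in 1 of the 2 libraries were compared by the log2 difference of FPKM + 1, dual-resistant minus vehicle. FPKM is the number of fragments scaled by transcript length and by the mapped fragments of the library. Of 30866 symbols, 9861 were compared, 20824 lay below the filter, 119 were listed at exactly 0 in 1 of the 2 libraries and 62 had a missing value.

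A gene is called higher or lower here at a log2 difference of 1 or more, which is a 2-fold difference, and otherwise within the limit. With 1 library per population there is no replicate, so these are sizes with no error and no test. Resistance, the drugs present in culture and the time in culture differed together, and their parts cannot be told apart. In a bulk library, fewer cells of a type and less RNA per cell cannot be told apart either. Triplets of values below run in the order vehicle, erlotinib-resistant, dual-resistant, and every fold is the ratio of FPKM + 1 between the dual-resistant and vehicle libraries.

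Epithelial cells are joined by tight junctions, desmosomes and E-cadherin, and factors such as GRHL2, OVOL and the ESRP splicing regulators maintain that state. In an epithelial-mesenchymal transition, factors of the ZEB and SNAI families repress junction genes, and cells gain vimentin, N-cadherin, contractile proteins and an interstitial matrix. In EGFR-mutant lung cancer, such a shift and use of other receptor tyrosine kinases are both known among cells that resist EGF receptor inhibitors.

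The labelled cell type was checked on marker genes. Of 9 lung adenocarcinoma epithelial markers, 8 stood at 5 FPKM or more in every library, SFTPB being the exception, and their summed FPKM was 5236, 5324 and 2330. Of 8 fibroblast markers COL1A1 alone reached 5 FPKM, in dual-resistant cells, at 3.84, 2.48 and 5.38 FPKM over the 3 libraries. LUM and PDGFRB ended at 1.52 and 1.01 FPKM in dual-resistant cells, from 0.0291 and 0 in vehicle. The other 5 stayed under 1 FPKM in every library, with PDGFRA at 0 in all 3 and COL1A2 below 0.01 FPKM. Endothelial markers were all under 1 FPKM. Among the blood markers CD68, which many cell types express, reached 5 FPKM, whereas CD3E and HBB were at 0. Summed FPKM over all genes was 596084, 528920 and 494817, and 5 FPKM in a transcript of 1 kb stood on about 338, 235 and 216 fragments by an estimate from 443 single-exon genes.

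Most genes were kept. Of the 9861 genes, 7862 (79.7%) lay within the limit and 2837 (28.8%) within a log2 difference of 0.25. Higher were 1027 (10.4%) and lower 972 (9.86%), so that higher genes made up 51.4% of the calls, and the median gene differed by -0.02. Differences of 4-fold or more were found for 325 genes higher and 353 lower, and of 16-fold or more for 45 and 37. The filter fixes part of this count, because a gene at or under 2 FPKM in 1 library passes only if it is 2-fold or more above that in the other: 244 of the higher and 212 of the lower genes were of this kind. Below, any call with a value at or under 2 FPKM in the vehicle or dual-resistant library is of this kind, also where it is not said. With both libraries scaled to the same FPKM sum, the median of all genes moved up by 0.27, 1526 genes were higher and 683 lower, and higher genes were 69.1% of the calls. Values below are as deposited, and where that scaling moves a named gene across the limit it is said.

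**Figure D1:**
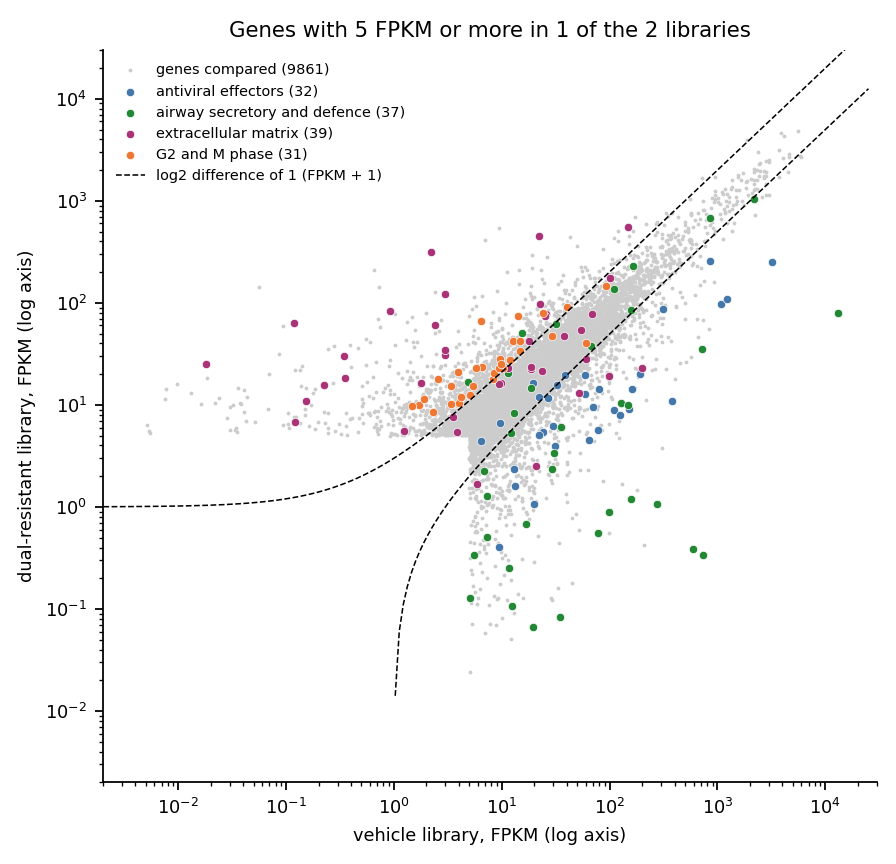
FPKM in the vehicle library (x, log axis) against the dual-resistant library (y, log axis), 1 point per gene for the 9861 genes compared; coloured points belong to 4 lists and the dashed lines mark a log2 difference of 1 in FPKM + 1. Matrix genes lie above the lines for 21 of 39, reaching 318 FPKM from 2.20 for THBS1, and antiviral and secretory genes mostly below, down to 78.8 FPKM from 13088 for LCN2.

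Gene lists by role are described by counts, to be read against the 10.4% of all genes that were higher and the 9.86% that were lower. Among the lists most shifted downward, secreted defence proteins had a median log2 difference of -4.96, carcinoembryonic antigens -4.43, alveolar genes -3.26, epithelial serine proteases -3.25, mucins -2.98, antiviral effectors -2.44 and epithelial transcription factors -2.09. Among the lists most shifted upward, collagens had a median of 2.89, matrix glycoproteins 2.27, caveolae genes 1.79, beta tubulins 1.74 and G2 and M phase genes 1.34. Housekeeping genes had a median of 0.24. The filter bears on these medians too, because a member low in 1 library passed only through the other. It fixed 4 of 6 lower calls of defence proteins and 5 of 9 higher calls of collagens, but 3 of 28 of G2 and M phase genes. With 5 FPKM required in both libraries, 11 of 73 list medians crossed the limit.

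**Figure D2:**
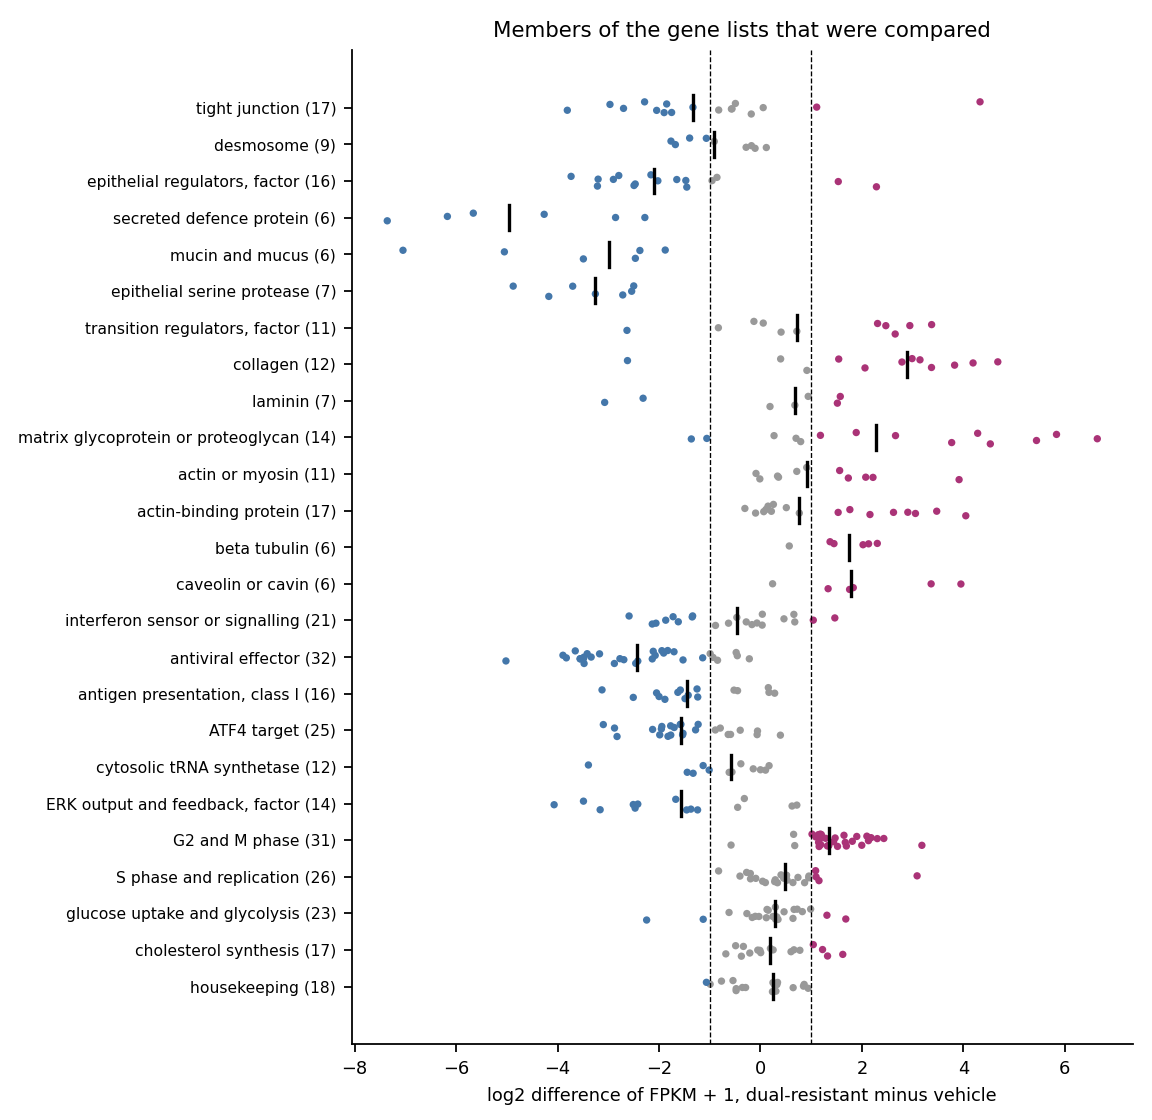
Log2 difference of FPKM + 1 (x) for each compared member of 25 role lists (y, number of members compared in brackets), 1 point per gene, higher genes in purple, lower in blue and others in grey, with the list's median as a black bar and the limits as dashed lines. Defence proteins, serine proteases and mucins lie wholly below the lower limit, while most S phase, glycolysis and housekeeping genes lie between the limits.

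Most regulators of epithelial identity were lower. Of 23 epithelial transcription factors 16 were compared and 7 lay below the filter; 12 were lower and 2 higher, and for 4 of the 12 the filter fixed the call. SOX2, a factor of the foregut and airway lineage, stood at 39.9 FPKM in vehicle, 10.2 in erlotinib-resistant and 2.07 in dual-resistant cells, 13.3-fold lower at the end than at the start. TP63, the factor of basal epithelial cells, stood at 8.83, 1.45 and 0.06898 FPKM. EHF, an ETS factor of epithelia, stood at 32.5, 22.97 and 2.61 FPKM and KLF4, a factor of epithelial differentiation, at 40.4, 31.3 and 4.55 FPKM. GRHL2, which sustains E-cadherin and claudin genes, stood at 18.04, 19.2 and 2.44 FPKM, and OVOL1, which opposes the transition, at 6.23, 5.12 and 0.284 FPKM, with the grainyhead and OVOL members named here after their values were seen. In each of these genes except SOX2 and TP63 the erlotinib-resistant library was closer to vehicle than to the end state. Not every lineage factor passed the lower limit. NKX2-1, the lung lineage factor, stood at 55.99, 40.01 and 28.4 FPKM, and KLF5 at 33.9, 29.3 and 18.3 FPKM. Both declined but stayed within the limit, with log2 differences of -0.95 and -0.86. GATA6, a factor of lung endoderm, was 2.895-fold higher at 4.32, 6.31 and 14.4 FPKM. The splicing regulators that produce epithelial isoforms followed the main direction: ESRP1 stood at 122, 141 and 7.01 FPKM and ESRP2 at 29.9, 31.3 and 9.31 FPKM, while RBM47 stayed within the limit at 47.5, 54.8 and 26.4 FPKM.

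The factors that drive a transition were higher in part. Of 19 listed, 11 were compared and 8 lay below the filter, with 5 higher and 1 lower. SNAI2, a repressor of E-cadherin, stood at 1.08 FPKM in vehicle, 12.2 in erlotinib-resistant and 20.6 in dual-resistant cells, 10.4-fold higher. ZEB2 and ZEB1, zinc finger repressors of epithelial genes, stood at 0.0429, 0.197 and 7.03 FPKM and at 0.107, 0.295 and 5.98 FPKM, and the filter fixed the calls of SNAI2, ZEB1 and ZEB2, whose vehicle values were under 2 FPKM. ETS1, a factor of invasive cells, was 5.55-fold higher at 15.7, 56.2 and 91.4 FPKM, and RUNX2, best known from bone, 4.95-fold higher at 2.09, 3.27 and 14.3 FPKM. FOXQ1 was the lower member, at 8.81, 4.53 and 0.583 FPKM, also a call fixed by the filter. SNAI1, TWIST1, PRRX1 and FOXC2 stayed below 5 FPKM in both libraries, and TWIST2, FOSL1, SOX4, SOX9 and HMGA2 lay within the limit.

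Cell junctions lost some members and kept or gained others. Of 21 tight junction genes, 17 were compared and 4 lay below the filter, with 9 lower and 2 higher, 1 of each by the filter. CLDN7, a claudin of the lateral membrane, stood at 655 FPKM in vehicle, 420.3 in erlotinib-resistant and 45.8 in dual-resistant cells, 14.005-fold lower. CLDN4 stood at 495, 305 and 101 FPKM, the tricellular junction receptor LSR at 198, 89.7 and 29.6 FPKM, the scaffold TJP3 at 19.2, 17.1 and 1.59 FPKM and cingulin, CGN, at 23.9, 20.8 and 5.04 FPKM. Against them stood CLDN2, a pore-forming claudin, at 0.136, 0.496 and 21.8 FPKM, and TJP1, the scaffold ZO-1, which was 2.16-fold higher at 15.8, 29.01 and 35.3 FPKM. CLDN1 and CLDN12 were kept, CLDN1 at 42.3 FPKM in vehicle and 43.95 in dual-resistant cells. Of 12 desmosome genes 9 were compared, 4 were lower and none was higher: JUP, which encodes plakoglobin, stood at 154, 152 and 44.6 FPKM, and PKP3, PPL and EVPL were 3.199-fold, 2.63-fold and 2.096-fold lower, EVPL within the limit under same-sum scaling. The desmosomal cadherins DSG2 and DSC2 and the linker DSP stayed within the limit, DSG2 at 76.5, 127 and 71.02 FPKM and DSP at 21.4, 21.9 and 18.8 FPKM. PKP2 and PERP lay within the limit too, so that the lower genes were plaque proteins while other plaque proteins, DSP and PKP2, were kept.

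The classical cadherins changed places in part. CDH1, E-cadherin, stood at 172 FPKM in vehicle, 194 in erlotinib-resistant and 22.8 in dual-resistant cells, 7.28-fold lower; in GRCh37, the build of the table, its locus is Entrez ID 999, chromosome 16, 68771195 to 68869444. CDH3, P-cadherin, stood at 101, 113 and 20.5 FPKM. CDH2, N-cadherin, stood at 0.00759, 0.0776 and 11.5 FPKM and CDH6 at 0.00511, 0.0454 and 6.39 FPKM, 2 calls that the filter fixed. Even so, CDH1 remained above CDH2 in the dual-resistant library on the FPKM scale, 22.8 against 11.5. The catenins CTNNA1 and CTNND1, which tie cadherins to the cytoskeleton, lay within the limit, and CTNNB1 was 2.21-fold lower as deposited and within the limit under same-sum scaling. The other 4 of the 11 cadherin and catenin genes lay below the filter. Gap junction genes also changed places, with GJB2 at 13.3, 13.5 and 2.82 FPKM against GJA1, connexin 43, at 8.23, 3.29 and 49.4 FPKM and GJC1 at 2.83, 9.403 and 19.6 FPKM; 4 of 7 were compared, 2 higher and 2 lower, 1 of the lower by the filter.

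Among the filament proteins, vimentin, VIM (Entrez ID 7431, chromosome 10, 17270258 to 17279592), stood at 7.04 FPKM in vehicle, 23.3 in erlotinib-resistant and 414 in dual-resistant cells, 51.6-fold higher. Keratins were lower in part. Of 18 listed keratin genes 7 were compared, 3 of them lower and 4 within the limit. Another 10 lay below the filter and KRT20 was listed at 0 in dual-resistant cells. The 7 listed genes compared summed to 4694 FPKM in vehicle and 2344 in dual-resistant cells. Outside the list, KRT34 was higher, with a log2 difference of 2.65. KRT15, a basal keratin, was 12.5-fold lower at 53.4, 27.2 and 3.35 FPKM, KRT7 was 2.66-fold lower and KRT18 2.62-fold lower, yet KRT7 and KRT18 still stood at 509 and 424 FPKM. KRT8 and KRT19, simple epithelial keratins, lay within the limit at 542 and 752 FPKM, beside vimentin at 414.

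**Figure D3:**
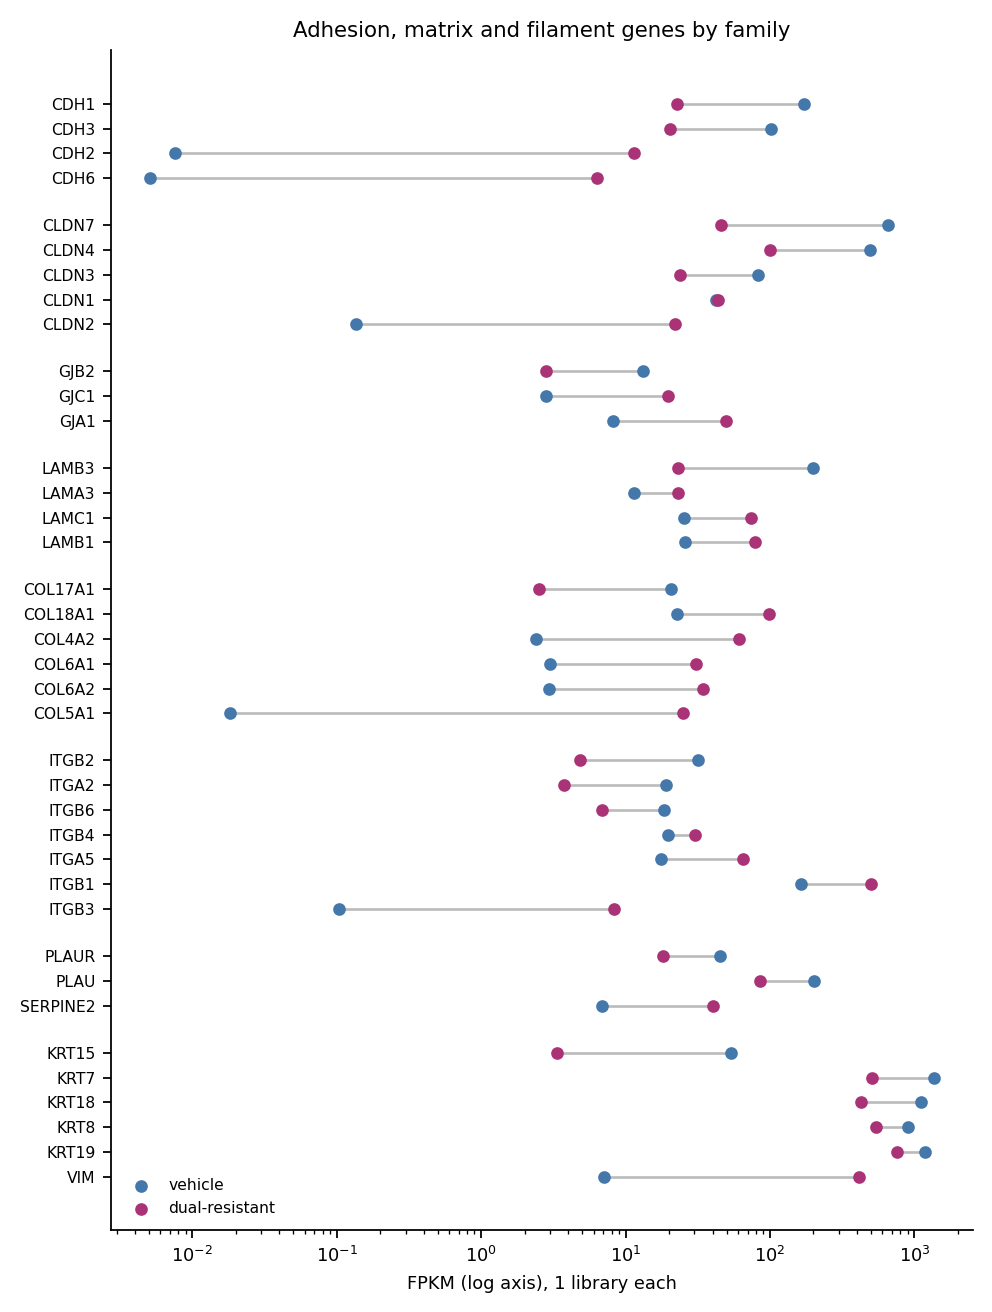
FPKM (log axis) of selected junction, matrix, integrin, plasminogen and filament genes in the vehicle library (blue) and the dual-resistant library (purple), 1 library each, grouped by family with a grey line joining the 2 values. In most families 1 set of members lies lower and another higher in dual-resistant cells, as in CDH1 (172 to 22.8) and CDH2 (0.00759 to 11.5); the members shown were chosen after their values were seen.

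Of 37 airway secretory and defence genes compared, 25 were lower, 15 of them by the filter, and 3 higher; 21 were lower under same-sum scaling. Of 17 secreted defence proteins, 6 were compared and all 6 were lower, 4 of them by the filter; 8 lay below the filter and DEFB4A, BPIFA1 and CP were listed at 0 in dual-resistant cells, DEFB4A at 788 FPKM in vehicle. LCN2, a lipocalin that withholds iron from bacteria, stood at 13088 FPKM in vehicle, 3107 in erlotinib-resistant and 78.8 in dual-resistant cells, 164-fold lower, and remained measurable. SLPI, an inhibitor of leukocyte elastase, stood at 157, 31.1 and 1.196 FPKM, PIGR, the receptor that carries IgA across epithelia, at 77.6, 11.6 and 0.554 FPKM, CXCL17 at 19.5, 1.33 and 0.0672 FPKM and WFDC2 at 30.5, 7.37 and 3.35 FPKM. Mucus genes were lower for 6 of 6 compared, 4 of them by the filter, with 6 others of 13 below the filter and MUC5AC not in the table. The chaperone of mucin folding AGR2 stood at 273, 180.2 and 1.07 FPKM, MUC5B at 34.9, 31.5 and 0.0838 FPKM, MUC1 at 127, 36.1 and 10.4 FPKM and MUC16, the antigen CA125, at 35.4, 23.6 and 6.01 FPKM. MUC5B was alike in the vehicle and erlotinib-resistant libraries, whereas LCN2, SLPI and PIGR already stood lower in the second.

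The lowest gene of the whole comparison was the calcium-binding S100P (Entrez ID 6286, chromosome 4, 6695566 to 6698897), at 735 FPKM in vehicle, 92.8 in erlotinib-resistant and 0.341 in dual-resistant cells, a log2 difference of -9.10. S100A9, a subunit of calprotectin, stood at 598, 58.7 and 0.388 FPKM and S100A14 at 97.9, 64.5 and 0.8903 FPKM. Of 13 S100 genes 10 were compared and 5 were lower, 3 by the filter; S100A7 and S100A8 were listed at 0 in dual-resistant cells and 1 lay below the filter. S100A11 was kept at 683 FPKM, S100A10 at 232 and S100A13 at 84.8, and S100A6 was 2.099-fold lower but still at 1040.0 FPKM, within the limit under same-sum scaling. Among alveolar genes 5 of 6 compared were lower, 3 by the filter, or 4 of 6 under same-sum scaling, with 7 of 14 below the filter and SFTPA1, a near-identical copy of SFTPA2, listed at 0. NAPSA, the aspartic protease of surfactant processing, stood at 147, 81.4 and 10.1 FPKM, SLC34A2, a phosphate transporter, at 16.9, 1.92 and 0.682 FPKM and LAMP3 at 29.1, 7.55 and 2.35 FPKM, against ABCA3, the lipid transporter of lamellar bodies, at 4.91, 7.16 and 16.8 FPKM. In the complement list, CFB stood at 725, 111 and 35.4 FPKM and C4BPA at 12.4, 2.26 and 0.108 FPKM, both lower. CD59, which blocks the terminal complex, was higher at 15.4, 22.3 and 50.4 FPKM. Of 9 complement genes compared 3 were lower, C3 among them only as deposited, and 2 higher. Under same-sum scaling 2 were lower and 4 higher.

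Serine proteases of epithelia were lower for 7 of 7 compared, 4 of these calls being fixed by the filter. The other 6 of 13 lay below the filter. ST14, which encodes matriptase, stood at 96.3, 85.1 and 13.8 FPKM, its partner PRSS8, prostasin, at 113.6, 37.2 and 5.35 FPKM, TMPRSS4 at 33.04, 15.5 and 0.1604 FPKM and HPN, hepsin, at 10.6, 2.63 and 0.215 FPKM. Their inhibitor SPINT1 was lower as well, at 183, 107 and 18.9 FPKM, while SPINT2 stayed within the limit at 359, 351 and 217 FPKM. The inhibitors PI3, SERPINA1 and SERPINA3 were also lower, which with SPINT1 and SLPI made 5 of 6 compared of 8 listed, 3 of them by the filter. The carcinoembryonic antigen genes CEACAM5 and CEACAM6, adhesion proteins of the apical surface, stood at 44.9, 7.21 and 0.781 FPKM and 123, 30.3 and 4.77 FPKM, and CEACAM1 was 4.17-fold lower, the filter having fixed 2 of these 3 calls. The other 2 of 5 lay below the filter.

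The interferon-stimulated programme was lower at its effectors and had a smaller median difference at its sensors. Interferons induce these genes through the interferon-stimulated response element in their promoters. Of 33 antiviral effectors, 32 were compared and IFITM2 lay below the filter; 26 were lower and none higher, with 3 of the 26 fixed by the filter. ISG15, a ubiquitin-like modifier, stood at 1218 FPKM in vehicle, 136 in erlotinib-resistant and 108 in dual-resistant cells, 11.1-fold lower, and IFI27 at 3181, 338 and 252 FPKM. IFIT1, which binds viral RNA caps, stood at 110.5, 4.1997 and 8.93 FPKM, OAS1, an RNA-activated synthetase, at 150.4, 17.2 and 9.19 FPKM and IFITM1, which blocks viral entry, at 381, 36.1 and 10.8 FPKM; IFITM genes are near-identical copies and their split is uncertain. The effectors' median was -2.34 between the erlotinib-resistant and vehicle libraries and -2.44 between the dual-resistant and vehicle libraries, 2 comparisons that share the vehicle library. GBP2, HERC5, SAMD9L, SAMD9, GBP3 and EIF2AK2 were the 6 members within the limit.

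Of 21 sensing and signalling genes all were compared, and 8 were lower and 2 higher. IRF9 stood at 76.5, 24.2 and 11.9 FPKM, IRF7, the master factor of type I interferon genes, at 69.04, 18.2 and 14.96 FPKM, the RNA sensor IFIH1 at 33.02, 11.9 and 7.16 FPKM and IFNGR1, a receptor chain for interferon gamma, at 66.9, 21.8 and 17.6 FPKM. The receptor chain IFNAR2 was 2.76-fold higher at 8.61, 15.4 and 25.5 FPKM and the sensor TLR3 2.06-fold higher at 2.37, 2.67 and 5.93 FPKM, and JAK1, IRF3 and MAVS lay within the limit. The median of this list was -0.47.

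Promoter windows are shown for 2 effectors because the response element was frequent among these genes. They run from 250 bases before to 50 after the start, from RefSeq on GRCh38.p14, with matches to the element, written as GAAA, any base at 2 positions and GAAA again, in capitals on either strand. Both lie on the plus strand, ISG15 at chr1:1013247-1013546 and IFIT1 at chr10:89392373-89392672.
ISG15: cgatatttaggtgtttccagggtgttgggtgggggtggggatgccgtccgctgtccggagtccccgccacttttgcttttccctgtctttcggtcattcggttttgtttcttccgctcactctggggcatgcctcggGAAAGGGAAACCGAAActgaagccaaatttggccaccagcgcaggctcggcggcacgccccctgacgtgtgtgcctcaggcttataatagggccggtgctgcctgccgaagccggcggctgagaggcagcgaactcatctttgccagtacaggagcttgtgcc
IFIT1: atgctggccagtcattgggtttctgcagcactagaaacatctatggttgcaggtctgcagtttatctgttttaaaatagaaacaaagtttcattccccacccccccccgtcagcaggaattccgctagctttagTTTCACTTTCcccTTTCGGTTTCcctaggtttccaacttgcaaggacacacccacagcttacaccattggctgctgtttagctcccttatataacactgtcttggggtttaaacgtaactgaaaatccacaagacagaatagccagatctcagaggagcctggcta
In ISG15 the 2 matches overlap and start 113 and 107 bases before the start, and in IFIT1 the 2 matches, read on the other strand, start 116 and 103 bases before it. A window was at hand for 25 of the 32 effectors, and 19 of these held the motif, 15 of them among the 20 lower ones. The motif was in 3.65% of all 27305 promoter windows, in 2.46% of those of genes within the limit, in 3 of 13 sensor windows and in 7 of 12 windows of class I antigen presentation genes. A match is a description of the sequence and not evidence of a bound site.

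**Figure D4:**
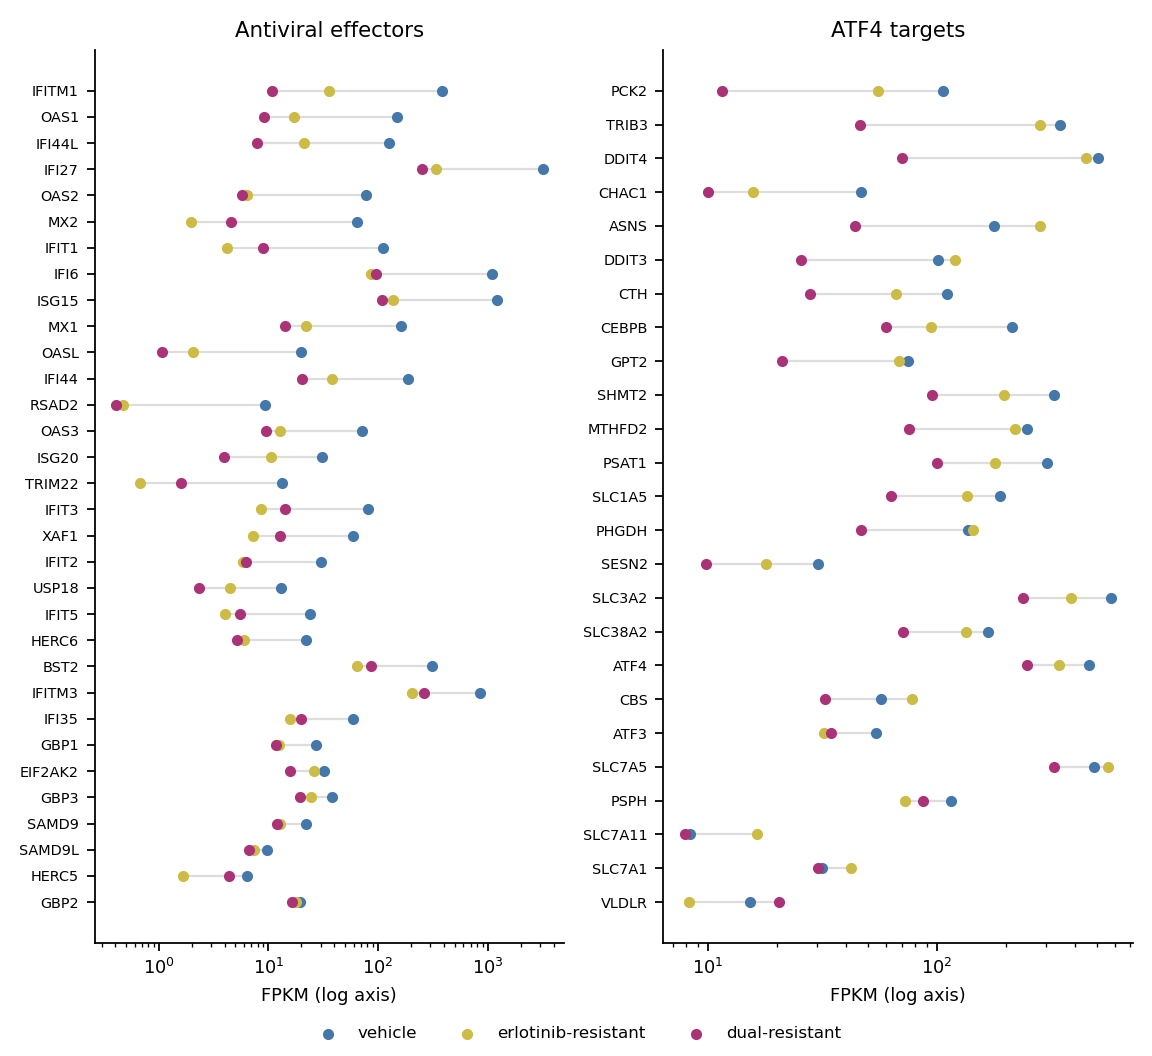
FPKM (x, log axis) of each compared member of 2 lists (y) in the vehicle (blue), erlotinib-resistant (yellow) and dual-resistant (purple) libraries, 1 library each, sorted by the difference between dual-resistant and vehicle. For most antiviral effectors the yellow and purple points lie together well below the blue point, as in ISG15 (1218, 136 and 108), whereas for several ATF4 targets the purple point stands alone, as in DDIT4 (503, 448 and 69.999).

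Antigen presentation was lower with them. Of 18 class I genes, 16 were compared, 2 lay below the filter, and 11 were lower and none higher. HLA-B stood at 919 FPKM in vehicle, 206 in erlotinib-resistant and 161 in dual-resistant cells, 5.69-fold lower, and HLA-F at 73.5, 19.02 and 7.54 FPKM; HLA genes share sequence and their split is uncertain. B2M, the common light chain, stood at 2243, 947 and 725 FPKM, the immunoproteasome subunit PSMB8 at 205, 98.2 and 50.6 FPKM, and NLRC5, the activator of class I genes, at 12.3, 9.75 and 2.596 FPKM. The loading factors TAPBP, CALR and PDIA3 were kept within the limit. All 5 class II genes compared of 9 were lower, 3 by the filter, among them CD74, the invariant chain, at 9.26, 1.51 and 0.445 FPKM and CTSS at 41.01, 17.6 and 10.2 FPKM.

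Inflammatory mediators went both ways. Of 15 chemokines 11 were compared, with 9 lower and 1 higher, 1 of each by the filter. CCL20 stood at 97.8 FPKM in vehicle, 3.28 in erlotinib-resistant and 0.553 in dual-resistant cells, CXCL1 at 298, 16.8 and 47.2 FPKM, IL8 at 372, 53.8 and 41.9 FPKM and CX3CL1 at 85.1, 14.9 and 13.2 FPKM, and all 4 were already lower in the erlotinib-resistant library. The exception was CCL2, which draws monocytes and stood at 0.141, 0.4996 and 23.8 FPKM. Of 17 cytokines 13 were compared, with 3 higher and 4 lower, 2 of each by the filter. IL32 stood at 1.03, 1.29 and 78.6 FPKM, IL6 at 4.002, 6.21 and 39.1 FPKM and IL11 at 0.7003, 1.002 and 5.93 FPKM, whereas TNFSF10, which encodes TRAIL, stood at 15.5, 1.67 and 1.14 FPKM, IL1A at 33.2, 17.96 and 5.66 FPKM and IL1B at 34.8, 13.3 and 6.53 FPKM. CSF1 and MIF were kept, MIF at 1154 FPKM.

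Among genes of ERK pathway output and feedback, which the EGF receptor drives, 15 of 28 compared were lower, 1 was higher and 12 lay within the limit. DUSP6, the ERK phosphatase, stood at 178 FPKM in vehicle, 63.6 in erlotinib-resistant and 1.48 in dual-resistant cells, 72.02-fold lower, and DUSP5 at 60.5, 103 and 5.22 FPKM. Of the 8 phosphatases, all compared, 4 were lower, 2 by the filter, DUSP4 within the limit under same-sum scaling, and DUSP8 was higher at 2.88, 4.95 and 10.5 FPKM. Of 17 transcription factors and related targets 14 were compared, 10 lower, or 9 under same-sum scaling, and none higher. EGR1 stood at 452, 42.001 and 25.998 FPKM, FOS at 261, 5.597 and 22.3 FPKM, ETV4 at 26.6, 21.3 and 2.08 FPKM and ETV5 at 21.03, 18.5 and 2.88 FPKM. EGR1 and FOS were lower in both resistant libraries, ETV4, ETV5 and DUSP5 in the dual-resistant one. MYC and FOSL1, also targets of the pathway, lay within the limit at 201, 359.6 and 309.9 FPKM and 67.3, 146 and 111 FPKM. Among 9 inhibitors 6 were compared, 5 lay within the limit and SPRY1 alone was lower, at 21.5, 7.998 and 3.92 FPKM.

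Amino acid response genes under ATF4 were lower for 17 of 25, all compared, and higher for none. ATF4 switches on amino acid synthesis, uptake and tRNA charging when amino acids are short. PCK2, a mitochondrial enzyme of gluconeogenesis, stood at 106 FPKM in vehicle, 55.1 in erlotinib-resistant and 11.5 in dual-resistant cells, 8.56-fold lower. TRIB3, a pseudokinase, stood at 345, 283 and 46.1 FPKM, DDIT4, an inhibitor of mTORC1, at 503, 448 and 69.999 FPKM, CHAC1, which degrades glutathione, at 46.7, 15.7 and 9.93 FPKM and ASNS, asparagine synthetase, at 177, 282 and 43.97 FPKM. The serine synthesis enzymes PSAT1 and PHGDH were 2.99-fold and 2.899-fold lower, 2 members chosen here after their values were seen. ATF4 itself stood at 460.4, 343 and 248 FPKM, within the limit, as did the transporters SLC7A5 and SLC7A11. Of the 12 cytosolic tRNA synthetases 5 were lower, 3 under same-sum scaling; WARS, which interferon also induces, stood at 727, 191 and 68.4 FPKM and SARS at 379, 334 and 139 FPKM, whereas GARS and TARS stayed within the limit. Of 17 endoplasmic reticulum chaperones and XBP1 targets, 16 were compared, 5 lower and 1 higher, but 1 lower under same-sum scaling. HERPUD1, a degradation factor, was the lowest at 112, 73.6 and 29.3 FPKM and CREB3L1, a membrane-bound factor that drives collagen genes, the highest at 0.151, 0.228 and 8.02 FPKM. CREB3L4 was listed at 0 in vehicle.

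The promoter window of ASNS is shown as an amino acid response gene with a match to the ATF4 motif. It is on the minus strand at chr7:97872359-97872658, printed along the gene, with the match to TGATGNAA in capitals.
ASNS: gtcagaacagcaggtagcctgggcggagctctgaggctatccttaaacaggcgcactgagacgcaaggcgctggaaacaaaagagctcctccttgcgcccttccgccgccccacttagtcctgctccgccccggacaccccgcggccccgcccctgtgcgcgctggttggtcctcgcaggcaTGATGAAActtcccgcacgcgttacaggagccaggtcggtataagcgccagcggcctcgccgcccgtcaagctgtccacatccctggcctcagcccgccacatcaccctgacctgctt
The match starts 68 bases before the start. The motif was in 5 of 21 windows of the ATF4 list, 3 of them among the 15 lower genes, in 6 of 10 windows of tRNA synthetases, 2 of them among 4 lower genes, and in 3.67% of all windows.

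Actin and contractile genes were higher for 13 of 28 compared, and 15 lay within the limit. Of 13 actin and myosin genes 11 were compared, with 5 higher and none lower. MYLK, the kinase that activates smooth muscle and non-muscle myosin, stood at 2.6002 FPKM in vehicle, 4.63 in erlotinib-resistant and 53.3 in dual-resistant cells, 15.1-fold higher, and the light chain MYL9 at 6.02, 2.98 and 31.6 FPKM. The heavy chain MYH9 stood at 119, 186 and 506 FPKM and the crosslinker ACTN1 at 47.3, 63.4 and 159.6 FPKM. The actins ACTB and ACTG1 were kept at 3026 and 2278 FPKM, and ACTA2, smooth muscle actin, did not pass 2 FPKM in any library. Of 21 actin-binding genes 17 were compared, 3 lay below the filter and TPM1 had a missing value; 8 were higher, 1 by the filter, and none lower. The filamin FLNC stood at 11.3, 35.8 and 202 FPKM, CNN3, a calponin, at 19.04, 18.03 and 222 FPKM, PALLD, palladin, at 11.03, 19.7 and 98.9996 FPKM and TAGLN, transgelin, at 1.47, 1.38 and 17.5 FPKM. FLNA, TAGLN2 and TPM3, abundant in vehicle, stayed within the limit.

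Several tubulin isotypes were higher. Of the 10 in the table, all compared, 6 were higher and none lower, and TUBB4 was not in the table; TUBA1B was higher too under same-sum scaling. TUBA1A, an isotype of neurons and migrating cells, stood at 36.6 FPKM in vehicle, 4.89 in erlotinib-resistant and 186 in dual-resistant cells. TUBB2A stood at 2.71, 2.097 and 17.3 FPKM, TUBB6 at 23.7, 14.1 and 99.2 FPKM and TUBB3, an isotype linked in other tumours to taxane response, at 79.6, 50.1 and 207 FPKM. TUBB2A and TUBB2B, like TUBA1A and TUBA1B, are near-identical copies, so their split is uncertain. The erlotinib-resistant library was the lowest of the 3 for TUBA1A, TUBB, TUBB2A, TUBB2B, TUBB3 and TUBB6.

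Of 39 matrix genes compared, 21 were higher, 10 of them by the filter, 6 lower and 12 within the limit. Of 21 collagen genes 12 were compared and 9 lay below the filter, with 9 higher, 5 of them by the filter, and 1 lower. COL4A2, a chain of basement membrane collagen, stood at 2.399 FPKM in vehicle, 6.77 in erlotinib-resistant and 61.1 in dual-resistant cells, 18.3-fold higher, and its partner COL4A1 at 0.352, 0.859 and 18.2 FPKM. COL6A1 and COL6A2, chains of a microfibril, stood at 3.003, 1.096 and 30.8 FPKM and 2.97, 0.517 and 34.1 FPKM, lowest in the erlotinib-resistant library. COL5A1, a fibril-forming chain, stood at 0.0182, 0.163 and 25.1 FPKM and COL12A1, a fibril-associated chain, at 0.152, 0.07102 and 10.9 FPKM, whereas COL17A1, the collagen of hemidesmosomes, stood at 20.6, 15.5 and 2.52 FPKM. The chains of the main fibrils of connective tissue were low: COL1A1 lay within the limit at 3.84, 2.48 and 5.38 FPKM, and COL1A2 and COL3A1 were below the filter. Of 9 laminins 7 were compared, with 2 higher, 2 lower and 3 within the limit. LAMB3, a chain of the laminin that anchors epithelia, stood at 199.9, 139 and 22.9 FPKM, and LAMB1 and LAMC1, chains of laminins of many tissues, at 25.7, 90.3 and 78.6 FPKM and 25.3, 48.8 and 74.3 FPKM. LAMA3, the alpha chain of that laminin, was not lower at 11.5, 28.1 and 22.98 FPKM, higher under same-sum scaling.

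Of 24 matrix glycoproteins and proteoglycans 14 were compared and 10 lay below the filter, with 9 higher, 5 by the filter, and 2 lower. THBS1, thrombospondin 1, stood at 2.196 FPKM in vehicle, 4.82 in erlotinib-resistant and 318 in dual-resistant cells, 99.7-fold higher. MATN2 stood at 0.119, 0.523 and 62.9 FPKM, SPP1, osteopontin, at 0.921, 5.004 and 82.5 FPKM, THBS2 at 0.341, 0.628 and 30.01 FPKM and FBN1, fibrillin, at 0.224, 0.295 and 15.7 FPKM. IGFBP7 stood at 22.1 FPKM in vehicle and 448 in dual-resistant cells and had a listed value of 0 in the library of erlotinib-resistant cells. FBLN2 was lower at 5.85, 0.195 and 1.66 FPKM, and TNC, tenascin C, was lower only as deposited. Of 9 crosslinking and modifying enzymes 6 were compared, with 1 higher, 1 lower and 4 within the limit. The crosslinking enzyme LOXL2 was 30.6-fold higher at 2.999, 13.3 and 121 FPKM, transglutaminase TGM2 3.78-fold lower at 52.4, 30.7 and 13.1 FPKM, and PLOD1, PLOD2, P4HA1 and P4HA2, which modify collagen, were kept within the limit.

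In the plasminogen system 4 of 6 genes were compared, with 2 lower and 2 higher. SERPINE2, a protease inhibitor, stood at 6.896 FPKM in vehicle, 14.7 in erlotinib-resistant and 40.5 in dual-resistant cells, 5.25-fold higher. PLAU, urokinase, stood at 203, 411 and 85.04 FPKM and its receptor PLAUR at 44.9, 54.3 and 18.03 FPKM, both lower, PLAU only as deposited. SERPINB2 was listed at 0 in vehicle and stood at 8.63 FPKM at the end, and PLAT lay below the filter. Of 18 metalloproteases 7 were compared, with ADAMTS1 at 0.179, 1.24 and 13.1 FPKM, MMP24 at 27.1, 19.5 and 104 FPKM and ADAM9 at 70.9, 119 and 177 FPKM higher and MMP15 at 31.9, 20.5 and 9.34 FPKM lower. MMP1, MMP2, MMP3, MMP9 and MMP14 stayed below the filter. Of the inhibitors TIMP2 stood at 59.1, 53.5 and 226 FPKM and RECK at 1.32, 2.03 and 9.296 FPKM, both higher, TIMP1 was kept, and TIMP3 and TIMP4 lay below the filter.

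Integrins, the receptors for this matrix, changed in both directions too. Of 20 subunits 11 were compared, 3 higher, 1 of them by the filter, and 3 lower. ITGA5, which pairs with ITGB1 to bind fibronectin, stood at 17.6 FPKM in vehicle, 15.1 in erlotinib-resistant and 65.4 in dual-resistant cells and ITGB1 at 164, 384 and 502 FPKM. ITGB3, a chain of the vitronectin receptor, stood at 0.103, 0.448 and 8.295 FPKM. ITGA2, a chain of a collagen receptor, stood at 19.2, 20.7 and 3.73 FPKM, ITGB6, which activates TGF-beta in epithelia, at 18.4, 26.2 and 6.84 FPKM and ITGB2 at 31.6, 30.5 and 4.87 FPKM. ITGA3, ITGAV and ITGB5 were kept.

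Targets of YAP and TAZ, coactivators that work through TEAD factors, were higher in part. Of 14 targets, all compared, 7 were higher, 3 by the filter, and 1 lower. ANKRD1, a titin-binding protein, stood at 0.724 FPKM in vehicle, 2.904 in erlotinib-resistant and 144 in dual-resistant cells, 83.8-fold higher. DLC1 stood at 0.00772, 0.135 and 14.2 FPKM, CRIM1 at 9.52, 16.8 and 71.3 FPKM and PTPN14, which restrains YAP, at 1.86, 6.75 and 12.7 FPKM. NT5E, the surface enzyme CD73, went the other way at 61.7, 100.1 and 9.05 FPKM. CYR61 stayed within the limit at 559, 503 and 1052 FPKM, above it under same-sum scaling, and F3 and CTGF lay within it. Among 11 factors 9 were compared: WWTR1, which encodes TAZ, stood at 12.6, 21.9 and 45.8 FPKM, VGLL3 at 0.975, 0.359 and 6.32 FPKM, LATS2 at 3.84, 4.44 and 13.9 FPKM and TEAD1 at 8.199, 15.3 and 21.7 FPKM, all higher. YAP1 had a missing value in vehicle.

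The promoter window of ANKRD1, the most shifted target, is on the minus strand at chr10:90921038-90921337, with GGAATG, the core of the TEAD site, in capitals on either strand.
ANKRD1: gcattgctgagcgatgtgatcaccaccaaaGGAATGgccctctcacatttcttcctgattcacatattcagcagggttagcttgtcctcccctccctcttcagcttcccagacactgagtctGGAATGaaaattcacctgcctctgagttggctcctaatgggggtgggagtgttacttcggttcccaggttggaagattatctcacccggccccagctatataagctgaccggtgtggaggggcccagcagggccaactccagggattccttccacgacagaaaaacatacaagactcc
The 2 matches start 220 and 128 bases before the start. The motif was in 4 of 10 target windows, 3 of them among 5 higher genes, and in 14.05% of all windows.

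Caveolae genes were higher for 5 of 6 compared, and 3 of 9 lay below the filter. CAV1 stood at 26.2 FPKM in vehicle, 304 in erlotinib-resistant and 279.6 in dual-resistant cells and CAV2 at 29.1, 192 and 101 FPKM; both lie beside MET on 7q31. PTRF, the coat protein cavin 1, stood at 6.57, 17.8 and 116 FPKM and PRKCDBP, cavin 3, at 5.29, 3.43 and 21.3 FPKM. CAV1 was as high in the erlotinib-resistant library, whereas PTRF and PRKCDBP were not.

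In the TGF-beta family and its antagonists, 10 of 17 genes were compared, with 5 higher, 2 by the filter, 1 lower and 4 within the limit, TGFB1 among the last. TGFB2 stood at 8.94 FPKM in vehicle, 27.2 in erlotinib-resistant and 130.3 in dual-resistant cells, 13.2-fold higher, and INHBA, the activin A subunit, at 0.162, 0.124 and 6.18 FPKM. FSTL3, which binds activin, stood at 2.72, 3.04 and 67.2 FPKM, FSTL1 at 5.25, 11.1 and 86.9 FPKM and NOG, noggin, which binds BMPs, at 0.0132, 0.0512 and 13.2 FPKM. GDF15, a stress hormone, stood at 515, 328 and 26.3 FPKM, 18.9-fold lower. Of 14 WNT genes 2 were compared: the antagonist DKK1 stood at 1.58, 9.83 and 54.8 FPKM and WNT7B at 10.3, 31.1 and 16.7 FPKM. Peptide hormones held the highest gene of the comparison, NPPB (Entrez ID 4879, chromosome 1, 11917521 to 11918992), the B-type natriuretic peptide, at 0.0556 FPKM in vehicle, 0.534 in erlotinib-resistant and 142 in dual-resistant cells, a log2 difference of 7.08. ADM, adrenomedullin, stood at 18.7, 8.95 and 116 FPKM and GAL, galanin, at 35.2, 33.1 and 73.9 FPKM, while PTHLH was lower at 14.5, 4.24 and 4.87 FPKM; 7 of 14 lay below the filter.

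Of 40 receptor tyrosine kinases 19 were compared, with 7 higher, 2 by the filter, 4 lower, 1 by the filter, and 8 within the limit. EGFR, the target of erlotinib, stood at 171 FPKM in vehicle, 885 in erlotinib-resistant and 698 in dual-resistant cells, 4.06-fold higher. MET, the target of crizotinib, stood at 98.9, 763 and 96.2 FPKM, a log2 difference of -0.04 as deposited and 0.23 under same-sum scaling, so that the dual-resistant library was at the level of vehicle and the erlotinib-resistant library above both. ERBB2, the partner of EGFR, was kept at 37.8, 29.5 and 37.1 FPKM, and ERBB3, the partner that signals to PI3 kinase, was 6.85-fold lower at 32.8, 23.3 and 3.94 FPKM. MST1R, the relative of MET, stood at 11.8, 9.46 and 1.67 FPKM. AXL stood at 0.555, 1.23 and 44.4 FPKM, 29.2-fold higher, with its ligand GAS6 at 1.31, 1.49 and 21.6 FPKM, its relative TYRO3 at 2.33, 4.78 and 6.54 FPKM and MERTK lower at 10.05, 7.63 and 3.99 FPKM, within the limit under same-sum scaling. FGFR1 stood at 0.401, 1.102 and 23.4 FPKM, FGFR4 at 3.96, 6.68 and 12.4 FPKM and the ligand FGF2 at 1.87, 6.84 and 18.7 FPKM, while 8 of the 10 receptors for FGF, PDGF and VEGF lay below the filter. ROR1 stood at 2.38, 7.21 and 14.4 FPKM, IGF1R at 4.78, 6.34 and 12.98 FPKM and the collagen receptor DDR1 at 98.6, 46.4 and 24.5 FPKM. EPHA2, EPHB4, PTK7 and INSR were kept.

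Ligands of these receptors went both ways. Of 9 EGF family ligands 5 were compared, and the filter fixed all 3 calls: HBEGF stood at 1.8001, 1.35 and 30.2 FPKM and NRG1, which binds ERBB3, at 1.63, 9.099 and 18.95 FPKM, against AREG at 6.99, 7.06 and 1.11 FPKM, with EREG kept at the ends of its path, 56.8, 144 and 56.6 FPKM. VEGFA stood at 247, 91.6 and 22.2 FPKM, 10.7-fold lower, VEGFC, the lymphatic factor, at 4.12, 6.096 and 21.9 FPKM, PDGFC at 13.98, 6.32 and 46.1 FPKM and the ephrin EFNA1 at 84.4, 32.98 and 19.1 FPKM. Of 22 other kinase ligands 14 were compared, with 6 higher, 2 by the filter, and 3 lower. The 2 receptors of the drugs and their near neighbours were set side by side as well. On 7q31, TES, CAPZA2, CAV1, CAV2, MDFIC and ST7 all stood higher in the erlotinib-resistant library, with a median log2 difference from vehicle of 2.21 over the 7 genes compared, MET included, and of 0.97 in the dual-resistant library. There, CAV1, CAV2 and MDFIC remained higher than vehicle, CAPZA2 and TES crossed the limit under same-sum scaling, and MET and ST7 lay within it. On 7p11, VOPP1 was 2.29-fold higher at 272, 309 and 625 FPKM, and SEC61G, CHCHD2, CCT6A and the other neighbours compared stayed within the limit, SEC61G at 5596, 5756 and 4872 FPKM.

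Mitotic genes were higher. Of 33 genes of G2 and M phase, 31 were compared and 2 lay below the filter; 28 were higher, 3 by the filter, and none lower. ANLN, anillin of the contractile ring, stood at 6.35 FPKM in vehicle, 25.1 in erlotinib-resistant and 65.7 in dual-resistant cells, 9.08-fold higher. CENPF, a kinetochore protein, stood at 2.54, 11.6 and 18.1 FPKM, TOP2A, which untangles chromosomes, at 14.1, 88.2 and 73.5 FPKM, PRC1, of the spindle midzone, at 3.89, 15.7 and 21.2 FPKM and ASPM, of the spindle pole, at 1.48, 8.35 and 9.86 FPKM. CCNB1, CKS2 and CDC25B were the 3 within the limit. Replication genes shifted less: of 30 listed, 26 were compared, 4 higher and none lower. TYMS, thymidylate synthase, stood at 5.54, 20.001 and 54.6 FPKM, RRM1 and TK1 were 2.14-fold and 2.13-fold higher, and MCM2, PCNA and MCM7 stayed within the limit. Among 18 G1 regulators 15 were compared. CDK6 stood at 5.64, 21.9 and 40.3 FPKM and CDKN2C, its inhibitor, at 0.948, 1.702 and 5.31 FPKM, both higher. CDKN1A, the inhibitor p21, was 9.68-fold lower at 41.99, 13.7 and 3.44 FPKM, and CCND1 and CCND3 were lower as deposited and within the limit under same-sum scaling. CDK4 and CDKN2A were kept.

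The promoter window of CDC20, a mitotic activator that stood at 24.1, 93.1 and 78.9 FPKM, is shown because TTTGAA, the core of the cell cycle homology region, was frequent in this list. It is on the plus strand at chr1:43358731-43359030, with matches on either strand in capitals.
CDC20: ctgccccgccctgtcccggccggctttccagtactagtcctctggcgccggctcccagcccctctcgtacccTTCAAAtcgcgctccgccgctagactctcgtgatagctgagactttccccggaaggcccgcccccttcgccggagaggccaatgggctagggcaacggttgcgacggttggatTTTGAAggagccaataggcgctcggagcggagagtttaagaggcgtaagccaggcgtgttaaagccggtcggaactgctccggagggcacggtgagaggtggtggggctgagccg
Its 2 matches start 178 and 65 bases before the start. TTTGAA was in 19 of 26 windows of G2 and M genes, 18 of them among 23 higher genes, against 1 of 23 windows of S phase genes and 15.4% of all windows. CCAAT was in 22 of 26 windows of G2 and M genes, 13 of 23 of S phase genes and 35.7% of all windows.

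Genes of drug and aldehyde metabolism were higher in part and rarely lower. Of 23 NRF2 targets 20 were compared, 6 higher and none lower, or 9 higher under same-sum scaling. HMOX1, heme oxygenase, stood at 7.17 FPKM in vehicle, 6.003 in erlotinib-resistant and 31.9 in dual-resistant cells, AKR1C3 at 2.74, 5.27 and 13.2 FPKM, AKR1B1 at 29.8, 32.95 and 99.2 FPKM, GCLM, of glutathione synthesis, at 8.52, 18.1 and 29.2 FPKM and TXNRD1 at 152, 252 and 381 FPKM. AKR1C genes are near-identical copies and their split is uncertain. NQO1, the classic target, ended where it began, at 59.01, 230.1 and 61.9 FPKM. CYP1B1 stood at 1.33, 21.8 and 64.6 FPKM and CYP1A1 at 3.57, 51.5 and 19.2 FPKM, both targets of the aryl hydrocarbon receptor, and AHRR was listed at 0 in vehicle. Of 15 aldehyde dehydrogenases 11 were compared, with ALDH1A1, which makes retinoic acid, at 0.0935, 0.809 and 58.8 FPKM and ALDH1L2 lower at 6.401, 0.624 and 1.15 FPKM. Of 9 ABC drug transporters 7 were compared, with 4 higher, 1 of them by the filter, and none lower. ABCB1, the multidrug pump, stood at 0.0384, 0.317 and 10.3 FPKM, ABCC2 at 3.66, 12.4 and 12.7 FPKM, ABCC4 at 10.4, 12.8 and 27.6 FPKM and ABCC1 at 12.2, 13.6 and 25.8 FPKM. ABCG2 lay below the filter.

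Surface markers separated as well. CD44, the hyaluronan receptor, stood at 23.01 FPKM in vehicle, 41.5 in erlotinib-resistant and 211 in dual-resistant cells and CD24, a mucin-like marker often opposed to CD44, at 110.1, 30.8 and 433 FPKM, so that both were higher. EPCAM, the epithelial adhesion marker, was 7.304-fold lower at 306, 345 and 41.1 FPKM, and ENG, endoglin, higher at 8.75, 13.8 and 32.9 FPKM. Neural adhesion genes were higher for 5 of 7 compared of 10, 2 by the filter: CADM1 stood at 5.55, 6.11 and 115 FPKM, NCAM1 at 0.0303, 0.135 and 9.46 FPKM, L1CAM at 0.0408, 0.237 and 8.499 FPKM and NRP2 at 11.8, 13.5 and 43.9 FPKM. The neuroendocrine markers CHGA, SYP and INSM1 stayed under 1 FPKM in every library. Of 17 checkpoint and NK ligands 11 were compared, and NT5E alone was lower. CD274, PD-L1, lay below the filter at 4.91, 13.03 and 2.83 FPKM, and CD276, PVR and CD47 were kept.

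Among the 25 highest genes of the comparison that belong to no list were NNMT, a methyltransferase that consumes methyl donors, at 9.37, 5.78 and 544 FPKM, and EDN2, an endothelin, at 0.709, 1.79 and 68.99 FPKM. HAVCR1, the kidney injury molecule, stood at 2.38, 6.62 and 127 FPKM, NEXN, an actin-binding protein of muscle, at 0.741, 3.49 and 58.4 FPKM and DYSF, dysferlin of membrane repair, at 0.606, 1.11 and 41.2 FPKM. The others were EPDR1, KIAA1462, EVI2A, FAM101B, GPRC5B, BICC1 and FILIP1L, between 0.0868 and 1.999 FPKM in vehicle and between 31.2 and 79.9 in dual-resistant cells. Among the 25 lowest, AZGP1, a secreted glycoprotein, stood at 209, 80.5 and 0.428 FPKM and PRODH, proline dehydrogenase, at 309, 33.8 and 3.76 FPKM. ASS1, which makes argininosuccinate for arginine synthesis, stood at 404, 137 and 18.1 FPKM, the calcium channel TRPC6 at 44.5, 3.25 and 0.181 FPKM, and the secreted proteins PAEP and CHI3L2 at 51.996, 2.52 and 0.594 FPKM and 86.1, 7.27 and 1.79 FPKM. TCN1, a vitamin B12 carrier, and ST6GALNAC1, a sialyltransferase of mucins, were 26.8-fold and 26.4-fold lower.

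Genes of central metabolism and the common machinery lay mostly within the limit, as did 79.7% of all compared genes, so this was not particular to them. Fatty acid genes, with 10 of 16 within the limit, and hypoxia genes, with 6 of 12, lay under that share. The 15 most abundant genes within a log2 difference of 0.25 were SEC61G, GAPDH, ACTG1, TMSB10, PFN1, EEF1A1 and 9 ribosomal protein genes, with RPL19 at 4123, 3917 and 4354 FPKM. Of 23 genes of glucose uptake and glycolysis, all compared, 19 lay within the limit. HK1 and HK2, the entry enzymes, moved apart at 14.5, 17.4 and 37.3 FPKM and 21.1, 17.7 and 9.13 FPKM, HK2 within the limit under same-sum scaling, PFKP stood at 34.2, 58.4 and 112 FPKM, and the transporter SLC2A3 was 4.74-fold lower at 15.6, 0.344 and 2.49 FPKM. ALDOA, ENO1 and PGK1 were kept, PGK1 at 537, 286 and 500.0 FPKM. Of the hypoxia list VEGFA, EGLN3, NDRG1 and, as deposited, ERO1L were lower, and HIF1A and PDK1 higher, with EGLN3 at 41.1, 8.15 and 4.82 FPKM and HIF1A at 104, 164 and 242 FPKM. Cholesterol synthesis was kept for 13 of 17 compared, with SQLE, INSIG1, HMGCS1 and IDI1 higher, SQLE at 6.02, 9.02 and 20.6 FPKM. Of 16 fatty acid genes compared 10 lay within the limit, 4 were higher and 2 lower. ACACA, the first committed enzyme, stood at 21.4, 27.8 and 88.6 FPKM and ACLY at 61.6, 104 and 212 FPKM, both higher. Their regulator SREBF1 was lower at 85.3, 59.1 and 23.3 FPKM.

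Of 30 cell death regulators 25 were compared and 19 lay within the limit, to be read against the 79.7% of all genes compared. BCL2L1, MCL1, BAX and PMAIP1 lay within the limit, BCL2 was below the filter at 0.055997, 0.179 and 2.83 FPKM and BCL2L11, which encodes BIM, had a missing value in vehicle. BBC3, which encodes PUMA, was lower at 23.5, 14.9 and 7.47 FPKM, BIK at 48.7, 37.04 and 16.6 FPKM, BCL2A1 at 10.2, 10.7 and 3.19 FPKM and CASP1 at 11.2, 2.01 and 1.46 FPKM; BOK was higher at 8.44, 4.98 and 19.9 FPKM. CASP8 was lower only as deposited. Of 18 housekeeping genes 17 lay within the limit, and CHMP2A was 2.09-fold lower as deposited. Under same-sum scaling 3 of the housekeeping genes were higher and none was lower.

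Levels that were left and then recovered were counted over the 9827 compared genes that also had a value in the erlotinib-resistant library. A regained gene was 2-fold or more lower there than in vehicle and 2-fold or more higher again in dual-resistant cells, ending within the limit of vehicle. There were 80 (0.814%). A returned gene made the opposite path, and there were 30 (0.305%). The 2 steps of each path share the erlotinib-resistant library, so 1 aberrant value there would make both, and the end points were fixed by the rule, so these are descriptions of size. With 1 FPKM as the filter 50 genes returned, and 60 with none.

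FN1, fibronectin, was regained at 101, 27.9 and 176 FPKM and CTGF, a secreted YAP target, at 58.8, 5.68 and 41.5 FPKM. DUSP1, an immediate early phosphatase, was regained at 105, 32.8 and 162 FPKM, unlike DUSP6 and DUSP5. SCD5, a desaturase, stood at 4.33, 0.337 and 8.51 FPKM, CXCL6 at 6.12, 0.523 and 9.103 FPKM, INHBB at 9.18, 1.41 and 8.82 FPKM, AMOT, angiomotin, at 5.41, 0.179 and 4.49 FPKM and EDN1, endothelin 1, at 12.4, 5.405 and 24.5 FPKM. FN1, SCD5, EDN1, C5orf13, FNDC4, PDLIM4, PGBD5 and SMARCD3 ended above the limit under same-sum scaling. Returned genes were led by MET. ALDH1A3, another retinoic acid enzyme, stood at 73.7, 304 and 88.9 FPKM, the neuropeptide precursor VGF at 18.8, 47.1 and 16.4 FPKM, THBD, thrombomodulin, at 10.2, 34.2 and 11.7 FPKM and the kinase STK39 at 18.97, 50.1 and 9.49 FPKM. CDT1, a replication licensing factor, stood at 8.74, 19.9 and 7.06 FPKM and the adaptor GRB14 at 5.22, 12.6 and 4.06 FPKM. CAPZA2, the neighbour of MET, returned part of the way at 58.6, 275 and 115 FPKM.

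**Figure D5:**
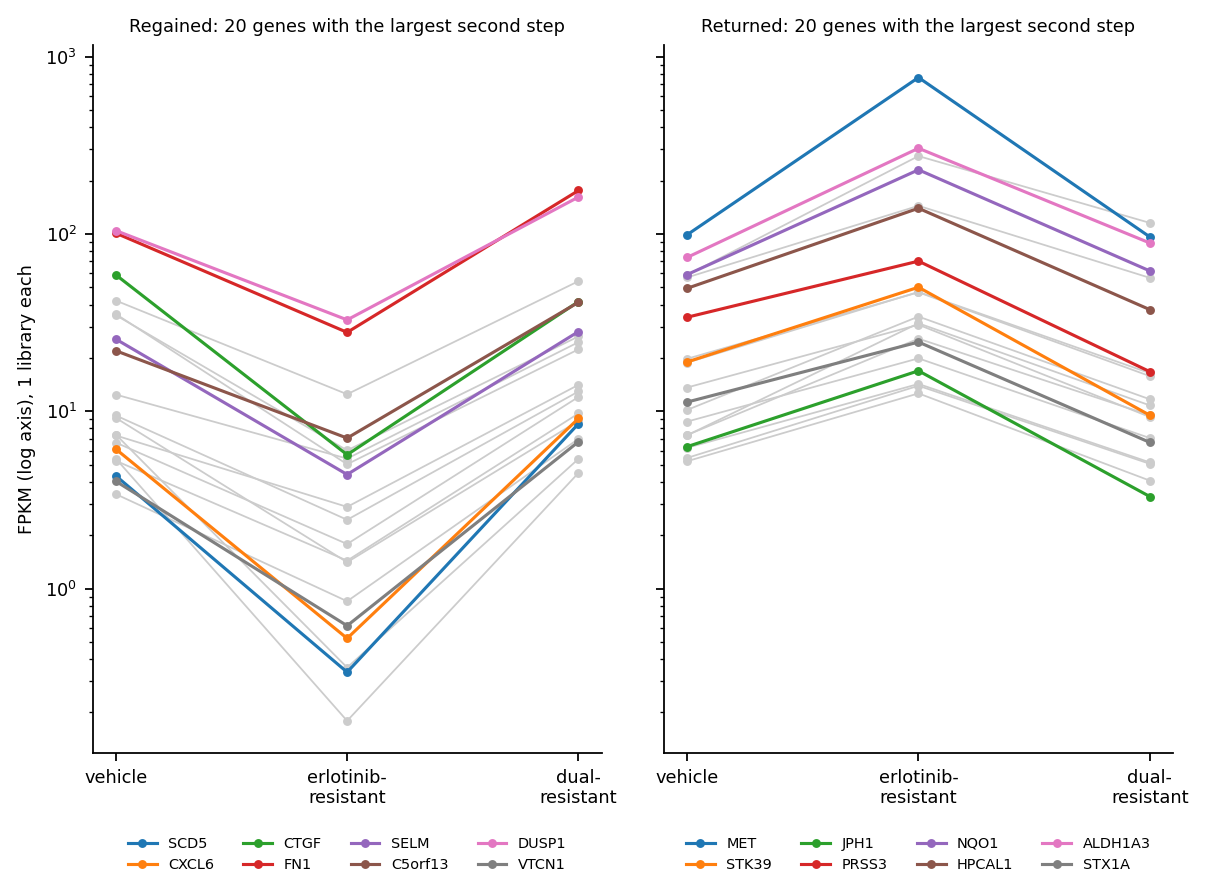
FPKM (y, log axis) in the 3 libraries (x) of the 20 regained genes (left) and 20 returned genes (right) with the largest difference between the dual-resistant and erlotinib-resistant libraries; the 8 largest are coloured and named, the others grey, 1 library per point. Regained genes dip in the middle library, as CTGF does (58.8, 5.68 and 41.5), and returned genes peak there, MET with the highest value (763).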

How the data were processed

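RNA from 3 populations of HCC827 cells was sequenced, 1 library each. The deposited table gives 1 FPKM value per gene row and library, made by the authors with TopHat 1.3 and Cufflinks 1.3 on GRCh37, per the submitters' processing notes; for the annotation, strandedness and settings, the sources used here give nothing, so overlapping and antisense genes cannot be told apart. FPKM holds no counts, so the depth is approximate: the worth of 1 fragment was taken as percentile 1 of the values above 0 of 443 single-exon genes of 1 to 5 kb. FPKM divides by the mapped fragments of a library, so a few abundant genes shift all others, and 2 scalings were tried for this reason.

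Python 3.11.15 with pandas 2.3.3, numpy 2.4.6 and matplotlib 3.10.9 was used. The table's 31402 rows were summed to 30866 symbols, 415 of them on more than 1 row. The log2 difference of FPKM + 1 was taken, with a filter of 5 FPKM in 1 of the 2 libraries and a limit of 1. Adding 1 understates the folds of low genes. A value of exactly 0 can be a failed estimate, so such genes were set aside, with no fold. Start positions in the table count from 0 and are given from 1. The code was tested on simulated data with known folds. All columns of values in the table were used.

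Genes named were, for each of 76 role lists in 27 lists, up to 5 members past the limit in each direction and the 3 most abundant within it, every member of lists of up to 6 measured members, the 25 highest and 25 lowest genes, the 20 regained and 20 returned genes with the largest second step, the 15 most abundant kept genes, EGFR and MET. Other names were chosen after their values were seen, and some genes that the rule names are not reported here. The comparison and lists were chosen with earlier results of these data known. Genes were not divided by the step at which they changed, because the steps share libraries. Alternatives were a pseudocount of 0.1, filters of 1 FPKM and none, scaling to the same sum or by the median ratio, zeros kept, and the highest row per symbol. A filter of 5 FPKM in both libraries and protein-coding genes only were added after seeing the data. Promoter windows came from RefSeq on GRCh38.p14, the first listed per gene ID, 27305 in all, of which 7980 belonged to compared genes. CACCTG, a site that ZEB and SNAI factors bind, was searched too, and no window is shown for it. The site was in 4 of 13 tight junction windows and 2 of 11 windows of epithelial transcription factors. It was in 2 of 3 windows of epithelial serine proteases and in 20.6% of all windows.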

Additional observations from a re-analysis of the deposited data

How the results depend on the processing

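Of 152 list counts, 62 moved by more than 1.5 times with 5 FPKM required in both libraries, 20 with libraries scaled to the same sum, 16 with a filter of 1 FPKM, 16 with none and 4 with a pseudocount of 0.1 FPKM. The numbers of genes higher, lower, regained and returned stayed within 1.5 times of those reported under most alternatives. The exceptions were genes returned, 50 with a filter of 1 FPKM and 60 with no filter against 30, and, with 5 FPKM required in both libraries (chosen after seeing the data), 526 genes higher and 548 lower against 1027 and 972. That filter removes genes that are low in 1 library, so it leaves fewer genes to call. The median of the metalloprotease inhibitor list was -0.12 with no filter against 1.92, because TIMP3 and TIMP4 then enter it. No other list median of 1 or more in size changed sign under the alternatives run. Some smaller medians did so with libraries scaled to the same sum. Among these, EGF family ligands moved from -0.007 to 0.26 and G1 regulators from -0.06 to 0.20. Of the named genes none turned direction past the limit; 44 of 537 crossed the limit with libraries scaled to the same sum, 6 of 541 with a pseudocount of 0.1 FPKM and 4 of 541 with the median ratio. No replicate could be left out, since each population is 1 library. No paired analysis was possible because no group has more than 1 sample. Without counts, the precision of low values is not known beyond the estimate of depth.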

Other observations

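Several gene families outside the lists above were described after their values were seen, by counts within the same comparison. Of 80 cytosolic ribosomal protein genes 2 were higher and 7 lower, with a median log2 difference of -0.43, or -0.16 with libraries scaled to the same sum, under which 1 was lower. The highest was RPS27L, a paralog of RPS27, at 21.6 FPKM in vehicle and 99.8 in dual-resistant cells. Of 37 complex I subunits of the respiratory chain none was higher or lower, with a median of -0.27 as deposited and -0.0018 under that scaling. Of 37 proteasome subunits 6 were lower, 3 under that scaling, and none was higher; the lowest was PSMB8, the interferon-induced subunit, with a log2 difference of -1.999. Mitochondrial ribosomal proteins, 76 in all, had 2 higher and 6 lower.

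Syndecans and glypicans, the cell surface heparan sulfate proteoglycans, were higher for 4 of 6 and lower for 1. GPC4 stood at 0.122 FPKM in vehicle and 22.2 in dual-resistant cells, and SDC1, the syndecan of epithelia, at 124 and 41.01. Of 6 potassium channel genes named KCN, 5 were lower, 4 under same-sum scaling, at a median of -1.33, and KCNF1 was lowest at -2.33. Of 8 annexins 2 were higher, ANXA6 most at 0.246 and 8.31 FPKM, and none was lower. Of 14 tetraspanins 2 were higher and 3 lower, with TSPAN1 lowest at -4.18. The smallest of these families number 6 genes and were picked from many, so their counts are descriptions of these libraries.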
